A study of Mus musculus with 10 samples.

Results

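The Polycomb complex subunits described here are 8 genes, of which Eed, Ezh2, Suz12 and Jarid2 encode members of Polycomb repressive complex 2 (PRC2) and Phc1, Cbx7, Rnf2 and Bmi1 members of Polycomb repressive complex 1 (PRC1). They were chosen by symbol, as all probe sets annotated to a single one of these genes, which gave 22 of the 20380 single-symbol probe sets in the series (12393 genes). Of these 22, 17 passed a filter that asks for a deposited log2 value above 4 on at least 2 arrays, 10 of PRC2 and 7 of PRC1, as did 14012 probe sets in all. The other 5 (1 of Eed, 1 of Suz12 and 3 of Rnf2) lay between 1.55 and 4.05 and are not described further. All 8 genes kept at least 1 probe set.

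The series holds 10 one-channel Affymetrix arrays of mouse cells, 5 groups of 2 arrays with replicates named a and b. Induced pluripotent stem cells (iPSC) had been cultured either in serum with 2i, the inhibitor pair directed at the ERK pathway and at GSK3 (2i iPSC below), or together with mouse embryonic fibroblasts, MEFs (co-cultured iPSC below). The other 3 groups were secondary MEFs, fibroblasts that can be made to express Yamanaka factors (Pou5f1, Sox2, Klf4, Myc), after 32 days of that expression: a day 32 sample with no fraction named, a Sox2-positive and a Sox2-negative fraction. The series title ties the samples to RNA FACS, in which cells are sorted by an RNA they contain. The labels give no strain, no clone and no transgene promoter, call the cell type of every sample iPSC, and do not say whether MEFs were removed from the co-culture or whether replicates were separate cultures. The p-values below therefore measure only the spread between these samples, which may be technical.

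Polycomb proteins keep developmental genes silent through chromatin. PRC2 methylates a lysine in the tail of histone H3: Ezh2 is the catalytic subunit, Eed binds the finished mark and stimulates the enzyme, Suz12 holds the core together, and Jarid2 is an accessory subunit that helps to bring the complex to its targets. Canonical PRC1 reads that mark through a Cbx protein such as Cbx7, compacts chromatin through Phc1, and ubiquitinates histone H2A through the ligase Rnf2 (RING1B) paired with a Pcgf protein such as Bmi1. In mouse pluripotent cells Cbx7 is the main Cbx protein of PRC1, and other Cbx proteins take its place on differentiation. Bmi1 is best known for repressing the Cdkn2a locus and for supporting the growth of fibroblasts and adult stem cells.

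The stretches upstream of Cbx7, Jarid2 and Bmi1 are printed because these genes had the largest differences between the sorted fractions, the first pair higher and Bmi1 lower in the Sox2-positive cells. Each is the 250 bases before a RefSeq start (assembly GRCm38.p6), 5′ to 3′ on the strand of the gene, outside its annotated transcript. The windows are chr15:79932647-79932896 (minus strand) for Cbx7, chr13:44730524-44730773 (plus strand) for the first of the Jarid2 starts, and chr2:18676768-18677017 (plus strand) for Bmi1. Capitals mark matches on either strand to the motifs searched: the E-box CACGTG, the E2F words TTTCCCGC, TTTCGCGC, TTTGCCGC and TTTGGCGC, the octamer ATGCAAAT, the CCAAT box and the GC box GGGCGG.
Cbx7: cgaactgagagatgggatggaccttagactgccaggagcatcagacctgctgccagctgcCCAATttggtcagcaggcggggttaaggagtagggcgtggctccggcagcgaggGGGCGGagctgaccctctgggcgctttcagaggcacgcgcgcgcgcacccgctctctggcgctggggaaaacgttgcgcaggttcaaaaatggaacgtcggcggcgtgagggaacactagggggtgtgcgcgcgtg
Jarid2: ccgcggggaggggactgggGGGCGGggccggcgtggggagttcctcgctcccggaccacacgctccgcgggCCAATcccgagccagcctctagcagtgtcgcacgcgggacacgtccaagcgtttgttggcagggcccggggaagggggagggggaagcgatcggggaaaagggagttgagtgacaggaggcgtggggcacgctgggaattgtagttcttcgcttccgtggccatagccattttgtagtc
Bmi1: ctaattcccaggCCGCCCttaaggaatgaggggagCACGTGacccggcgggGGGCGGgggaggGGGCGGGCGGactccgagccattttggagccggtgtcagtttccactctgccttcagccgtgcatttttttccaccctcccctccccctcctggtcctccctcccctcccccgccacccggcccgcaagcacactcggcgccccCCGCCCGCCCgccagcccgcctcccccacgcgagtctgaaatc
The windows of Cbx7 and Jarid2 each held 1 CCAAT box and 1 GC box, and that of Bmi1 held 6 GC box matches, some overlapping, and the only E-box, 215 bases before its start. Over 9 windows of the 8 genes, an E-box was in 1, an E2F word in 1 (Suz12), the octamer in 0, a CCAAT box in 4 and a GC box in 6. Of 32851 windows of this length 6.02% held an E-box, 1.86% an E2F word, 1.6% the octamer, 33.8% a CCAAT box and 32.7% a GC box. The member windows held 8 to 37 CG dinucleotides, against a median of 6 over all windows. These matches are letters in a window, and no binding was measured here.

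Array medians lay between 4.26 and 5.36, and the median absolute difference between replicates was 0.25 to 0.28 in the iPSC groups and the day 32 sample, 0.39 in the Sox2-positive fraction and 0.42 in the Sox2-negative fraction. With so few arrays their number limits the precision, and an exact two-sided permutation p for 2 arrays against 2 cannot go below 0.33. Groups were therefore compared with limma across 14012 probe sets, and a probe set was called at a Benjamini-Hochberg adjusted p under 0.05. The control probe sets split the arrays. For Actb, the 3' probe set exceeded the 5' probe set by 2.7 to 3.88 log2 units on the 4 arrays of 2i iPSC and of the day 32 sample, and 0.05 to 1.12 on the other 6. For Tfrc these gaps were 2.28 to 3.78 and 0.27 to 1.25. The 3' probe set of 18S RNA read 5.25 and 5.96 in 2i iPSC and 6.2 and 6.55 in the day 32 sample. It read 11.35 and 12.82 in co-cultured iPSC and 12.92 to 13.22 in the fractions. The Gapdh gap did not follow this split: it was 2.53 and 3.18 in co-cultured iPSC, 1.03 to 1.56 in the fractions, 0.84 and 1.13 in 2i iPSC and 1.47 and 2.25 in the day 32 sample. Co-cultured iPSC thus stood apart from the fractions by this control, and its part in the comparisons between them was not tested. The 4 comparisons described first lie within a side of this split. The other 2 cross it, and there the group and the split cannot be told apart. Of 12 pluripotency markers 4 lay under 4 on both Sox2-negative arrays and 0 in any other group. Sox2, which names the fractions, is among these 12, so its difference between them was fixed by the sort. In these bulk samples, fewer cells of a type and less RNA per cell cannot be told apart.

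**Figure D1:**
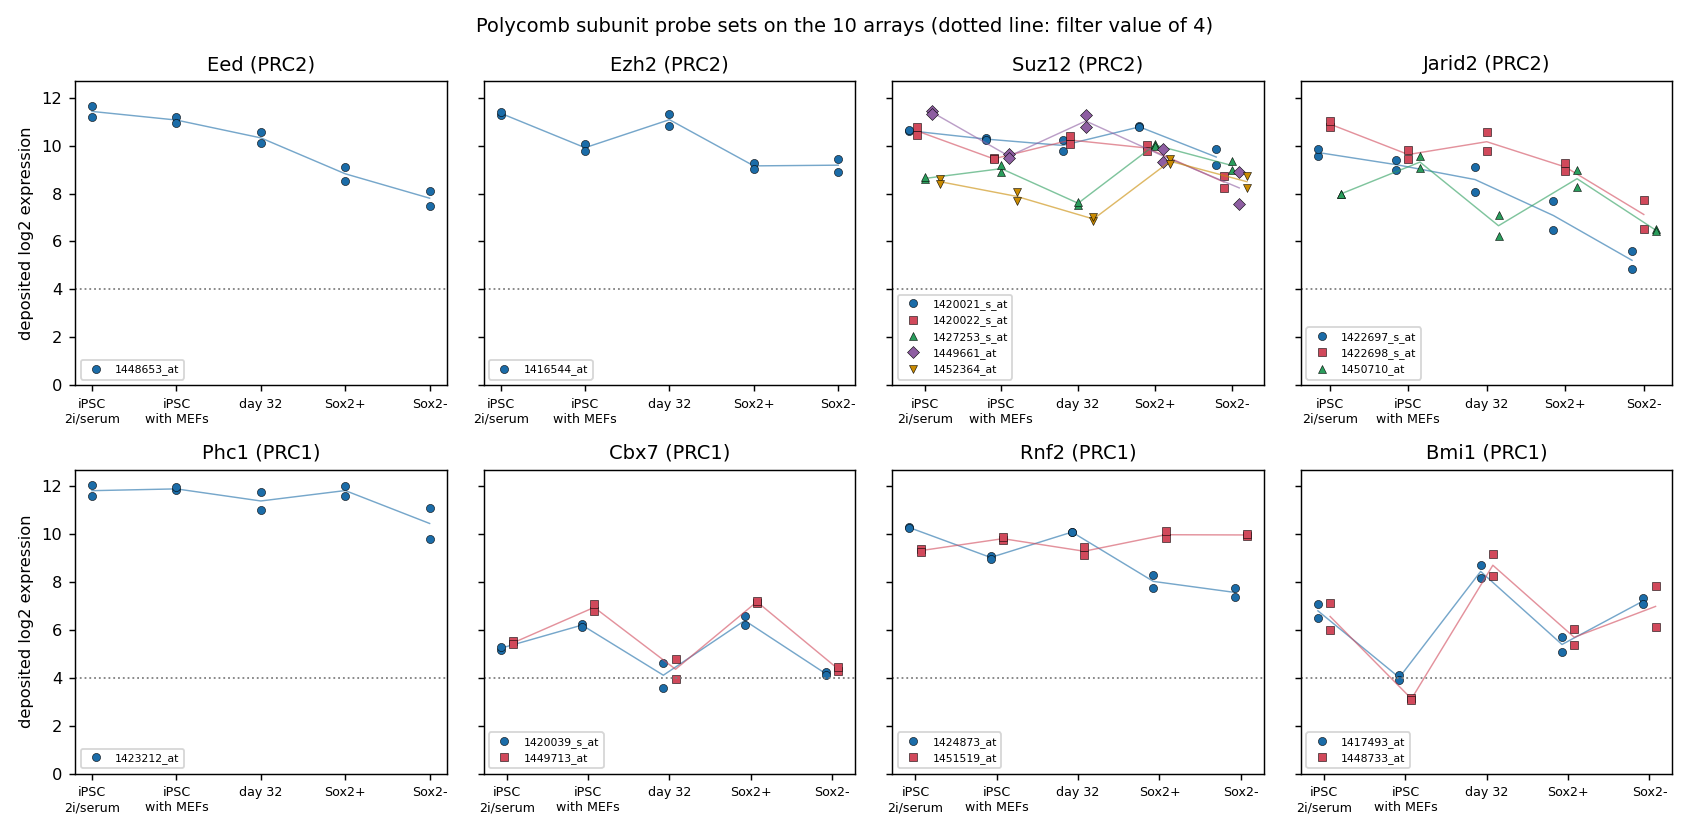
Deposited log2 value (vertical axis) of the 17 kept Polycomb probe sets in the 5 sample groups (horizontal axis, the co-cultured iPSC marked as with MEFs), a panel per gene, with PRC2 in the upper and PRC1 in the lower row. Points are arrays (2 per group), lines join group means and the dotted line is the filter value of 4. Eed stepped down from 11.43 in 2i iPSC to 7.80 in the Sox2-negative fraction, while Cbx7 and Bmi1 traced opposite zigzags.

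Eed (probe set 1448653_at) read 11.21 and 11.65 in 2i iPSC, 11.2 and 10.94 in co-cultured iPSC, 10.1 and 10.55 in the day 32 sample, 8.53 and 9.12 in the Sox2-positive fraction and 7.5 and 8.11 in the Sox2-negative fraction. The arrays of no neighbouring groups in this order overlapped. Ezh2 (1416544_at), the catalytic subunit, read 11.3 and 11.41, then 10.06 and 9.77, 10.83 and 11.34, 9.28 and 9.03, and 8.92 and 9.45 in the same groups. The fractions overlapped with each other, as did the day 32 sample with 2i iPSC, and co-cultured iPSC lay between these pairs.

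Suz12, the scaffold subunit, had 5 kept probe sets with different orders of the groups. Probe set 1420022_s_at read 10.78 and 10.45 in 2i iPSC, 9.47 and 9.43 in co-cultured iPSC, 10.06 and 10.41 in the day 32 sample, 10.02 and 9.78 in the Sox2-positive fraction and 8.72 and 8.24 in the Sox2-negative fraction. Probe set 1452364_at read 8.6 and 8.39, then 7.69 and 8.07, 6.85 and 7.02, 9.45 and 9.25, and 8.24 and 8.75. The first was lowest in the Sox2-negative fraction, the second in the day 32 sample and highest in the Sox2-positive fraction. Probe set 1427253_s_at, which ranged from 7.54 to 10.08, also had the day 32 sample lowest and the Sox2-positive fraction highest. Probe set 1449661_at, from 7.58 to 11.46, had the Sox2-negative fraction lowest and 2i iPSC highest, and 1420021_s_at spanned 9.18 to 10.81. On all 5 the Sox2-positive mean lay above the Sox2-negative mean.

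Jarid2 (1422698_s_at) read 10.78 and 11.03 in 2i iPSC, 9.8 and 9.46 in co-cultured iPSC, 9.78 and 10.55 in the day 32 sample, 9.29 and 8.93 in the Sox2-positive fraction and 7.75 and 6.5 in the Sox2-negative fraction. Probe set 1450710_at of the same gene read 7.99 and 8, 9.56 and 9.07, 6.21 and 7.1, 8.97 and 8.27, and 6.53 and 6.42. The third, 1422697_s_at, ranged from 9.87 in 2i iPSC to 4.83 in the Sox2-negative fraction. The Sox2-negative mean was the lowest on all 3, without overlap with the Sox2-positive arrays. On 1450710_at it overlapped with the day 32 sample, and co-cultured iPSC stood highest.

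Phc1 (1423212_at), the polyhomeotic subunit, read 11.59 and 12.06 in 2i iPSC, 11.84 and 11.96 in co-cultured iPSC, 11.01 and 11.78 in the day 32 sample, 11.62 and 12.04 in the Sox2-positive fraction and 9.8 and 11.11 in the Sox2-negative fraction. Every pair of neighbouring groups in its order overlapped, and the Sox2-negative arrays differed by more than those of any other group. Rnf2, the PRC1 ligase, went separate ways on its probe sets. 1424873_at read 10.32 and 10.25, 9.11 and 8.96, 10.09 and 10.1, 8.32 and 7.75, and 7.77 and 7.38 in the same groups, so that both fractions lay lowest. 1451519_at stayed between 9.13 and 10.12 on all 10 arrays, with the fractions highest.

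Cbx7 (1449713_at), the reader subunit, read 5.53 and 5.4 in 2i iPSC, 6.8 and 7.1 in co-cultured iPSC, 3.95 and 4.78 in the day 32 sample, 7.14 and 7.23 in the Sox2-positive fraction and 4.3 and 4.44 in the Sox2-negative fraction. Its other probe set, 1420039_s_at, gave the same order of means, from 6.4 in the Sox2-positive fraction to 4.12 in the day 32 sample. The Sox2-positive fraction and co-cultured iPSC stood highest, and the Sox2-negative fraction and the day 32 sample, which overlapped, lay lowest and near the filter value. Bmi1 (1417493_at), the Pcgf partner of Rnf2, read 7.11 and 6.5, 4.14 and 3.9, 8.71 and 8.19, 5.7 and 5.1, and 7.35 and 7.09. Its second probe set, 1448733_at, read 7.13 and 6.01, 3.17 and 3.09, 9.17 and 8.25, 6.03 and 5.37, and 7.86 and 6.12. Both placed the day 32 sample first, then the Sox2-negative fraction, 2i iPSC, the Sox2-positive fraction and, at or below the filter value, co-cultured iPSC. The Sox2-negative fraction and 2i iPSC overlapped on both probe sets, and 2i iPSC and the Sox2-positive fraction on the second.

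The sort at day 32 set Sox2-positive against Sox2-negative cells. The largest member differences were those of Cbx7, higher in the Sox2-positive fraction by 2.81 log2 units (SE 0.30, 7.04-fold, limma adjusted p = 0.0012) on 1449713_at and by 2.23 (SE 0.34, 4.69-fold, adjusted p = 0.0055) on 1420039_s_at. Jarid2 was higher on all 3 probe sets, by 3.66-fold to 4.42-fold (adjusted p = 0.0079 to 0.0395). Suz12 was higher on 1420022_s_at (2.68-fold, adjusted p = 0.0143) and 1420021_s_at (2.40-fold, adjusted p = 0.0272). Bmi1 was the only member lower, by -1.82 log2 units (SE 0.33, 3.53-fold, adjusted p = 0.0107) on 1417493_at, and its other probe set read -1.29 (adjusted p = 0.1929). The remaining 8 probe sets were not called: Eed differed by 1.02 (SE 0.34, adjusted p = 0.0818), Phc1 by 1.38 (SE 0.44, adjusted p = 0.0771), Ezh2 by -0.03 (SE 0.29, adjusted p = 0.9648), Rnf2 by 0.46 and 0.01, and the 3 other Suz12 probe sets by 0.86 to 1.34. Among the probe sets not called, the arrays of the fractions did not overlap for Eed, Phc1, the 3 other Suz12 probe sets and the other Bmi1 probe set. They overlapped for Ezh2 and both Rnf2 probe sets. Full separation of 2 arrays from 2 has an exact two-sided permutation p of 0.33, so it is not support for a difference. In all, 7 of 17 member probe sets were higher and 1 lower, against 6.19% higher and 5.07% lower of all probe sets tested. Their median difference was 1.26, with -0.02 over all probe sets.

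Only 3 of these 8 calls, those of Cbx7 and of Jarid2 1450710_at, stood whichever of the 4 arrays was left out. Without Sox2-negative replicate b the calls of Suz12 1420021_s_at (adjusted p = 0.0898) and 1420022_s_at (0.0501) and of Jarid2 1422697_s_at (0.1398) and 1422698_s_at (0.0646) were lost. Without Sox2-positive replicate b those of Suz12 1420021_s_at (0.0890), Jarid2 1422697_s_at (0.1870) and 1422698_s_at (0.0598) and Bmi1 1417493_at (0.0610) were lost. Without Sox2-positive replicate a, Suz12 1420021_s_at (0.0654) and Jarid2 1422698_s_at (0.0640) were lost, and without Sox2-negative replicate a, Jarid2 1422697_s_at (0.0508). With the 4 arrays of the fractions alone in the fit, only the 2 Cbx7 probe sets were called. Markers of cell states moved with these genes. All 12 pluripotency markers were called higher in the Sox2-positive fraction (summed log2 level 115.81 to 117.86 on its arrays, 58.46 to 59.13 on the Sox2-negative arrays), as were 6 of 10 epithelial markers (65.16 to 65.22 and 42.25 to 45.45). Sox2 is among the 12, and its call was fixed by the sort. Both of the kept endothelial and blood markers (7 on the array; 13.76 to 14.47 and 6.47 to 6.85) and 2 of 13 cell cycle markers (125.53 to 126.81 and 118.59 to 123.79) were also called higher. Pecam1 is among the kept endothelial and blood markers. So few of the 7 cannot stand for endothelial or blood cells. Of 11 kept fibroblast markers 1 was called lower (40.02 to 43.38 and 52.76 to 58.97), and 8 lay under 4 on both Sox2-positive arrays. Their part in the member differences was not tested.

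**Figure D2:**
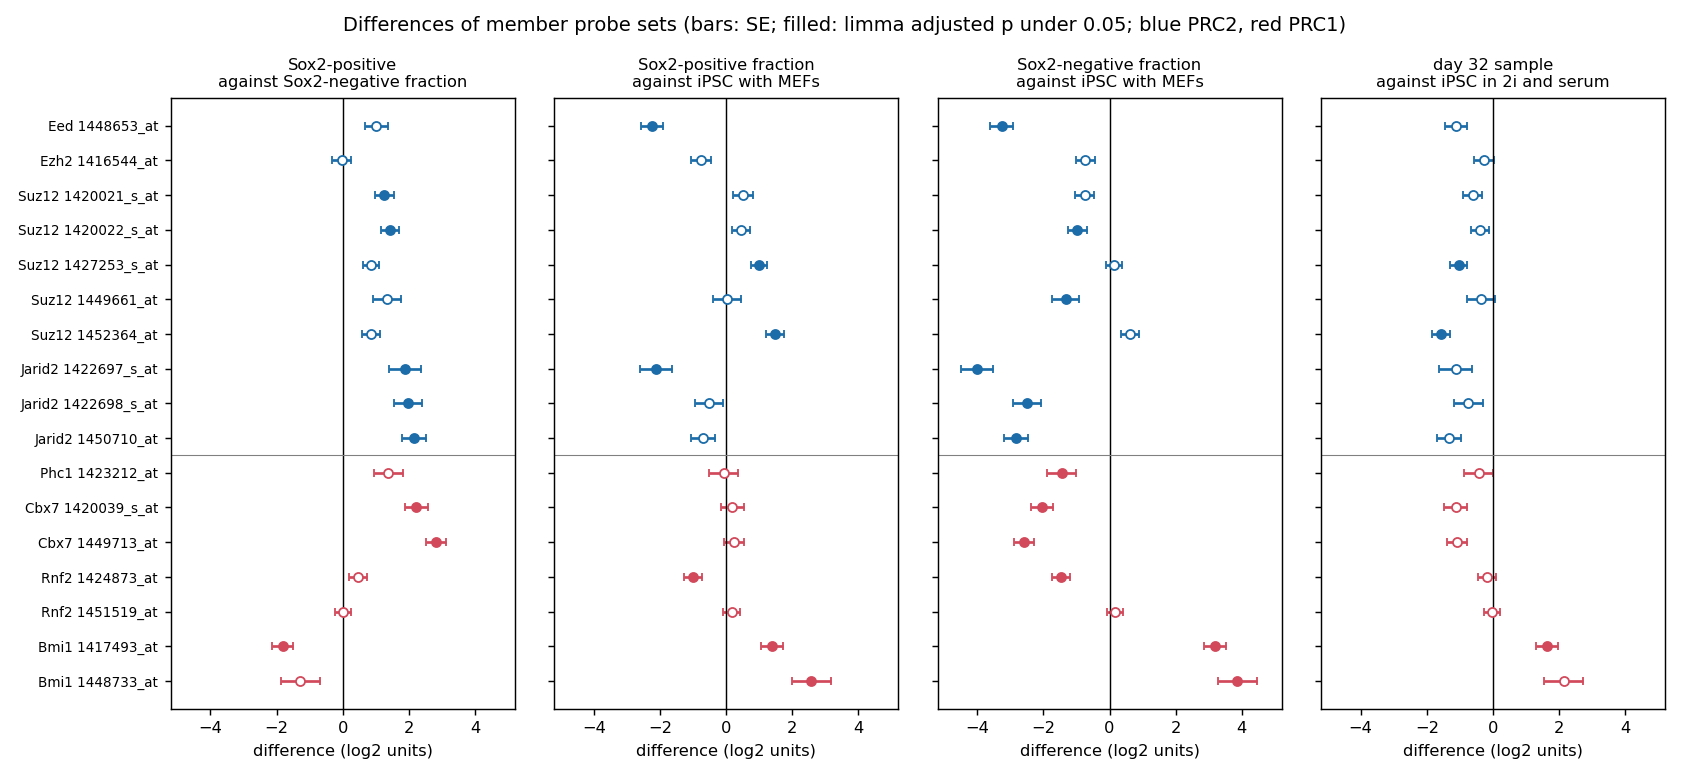
Difference in log2 units (horizontal axis) of each kept member probe set (rows, PRC2 above the line in blue, PRC1 below in red) in the 4 comparisons within a side of the array split. Bars are limma standard errors, and filled points have an adjusted p under 0.05. Cbx7 and Bmi1 differ in opposite directions between the fractions. In the Sox2-negative fraction against co-cultured iPSC 10 of 17 probe sets are called lower and 2, both Bmi1, higher. Of all probe sets 31.6% are called lower and 13.4% higher there.

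The Sox2-positive fraction was next set against established co-cultured iPSC. All probe sets had a median difference of -0.34 here, which quantile normalization moved to -0.04, so the values of called probe sets relative to that median are given too. Eed was lower in the Sox2-positive fraction, by -2.24 log2 units (SE 0.34, 4.74-fold, limma adjusted p = 0.0022), or -1.90 relative to the median. The other PRC2 genes called went different ways. Suz12 was higher on 1452364_at (2.77-fold, adjusted p = 0.0050; 1.81 relative to the median) and 1427253_s_at (1.99-fold, adjusted p = 0.0165; 1.33), and Jarid2 was lower on 1422697_s_at (4.36-fold, adjusted p = 0.0113; -1.78). Of PRC1, Bmi1 was higher on 1417493_at (2.60-fold, adjusted p = 0.0134; 1.72) and on 1448733_at (at least 3.25-fold, adjusted p = 0.0115; 2.91; co-cultured iPSC lay under 4 on both arrays, so the fold is counted from 4), and Rnf2 was lower on 1424873_at (2-fold, adjusted p = 0.0225; -0.66). Bmi1 1448733_at passed the filter through groups where it was high, so its p-value is not support for a difference. Not called were Cbx7 (0.19 and 0.24), Phc1 (-0.07, SE 0.44), Ezh2 (-0.76, limma adjusted p = 0.0741), Rnf2 1451519_at (0.16), the 2 other Jarid2 (-0.52 and -0.70) and the 3 other Suz12 probe sets (0.02 to 0.51). The 4 members called higher and 3 lower stand beside 7.38% higher and 25.4% lower of all probe sets, and their median was 0.16.

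The calls of Eed and Suz12 1452364_at held under every alternative tried. Without co-cultured iPSC replicate a the calls of Suz12 1427253_s_at (adjusted p = 0.1089), Jarid2 1422697_s_at (0.0830), Rnf2 1424873_at (0.1178) and both Bmi1 probe sets (0.0593 and 0.0674) were lost. Without its replicate b, Rnf2 1424873_at (0.0764) and both of Bmi1 (0.0816 and 0.0647) were lost. Without Sox2-positive replicate a, Suz12 1427253_s_at (0.0660), Jarid2 1422697_s_at (0.0670) and both of Bmi1 (0.0768 and 0.0650) were lost, and without replicate b, Rnf2 1424873_at (0.1029). Of all called probe sets 22.5% were higher, a share that became 46.6% after quantile normalization, which also ended the calls of Jarid2 1422697_s_at (0.0860) and Rnf2 1424873_at (0.4873), and 40.7% after median centring, which ended the latter (0.0784). Quantile normalization also brought Suz12 1420021_s_at (1.125, adjusted p = 0.0275), Suz12 1420022_s_at (1.081, 0.0290) and Rnf2 1451519_at (0.828, 0.0442) past the threshold as higher. Of the pluripotency markers 1 of 12 was called higher and 4 lower (summed level 124 to 124.44 in co-cultured iPSC), and of the cell cycle markers 0 and 7 of 13 (135.42 to 135.91). Of the kept fibroblast markers 0 were higher and 4 of 11 lower (58.44 to 61.11 in co-cultured iPSC). Of 10 epithelial markers 1 was higher and 2 lower, and both kept endothelial and blood markers were higher. Their part was not tested.

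In the Sox2-negative fraction against co-cultured iPSC, 7 of the 8 genes had at least 1 called probe set. With 1 probe set per gene 5 members were called, as were 4087 of all 8599 genes. Jarid2 was lower on 1422697_s_at by -4 log2 units (SE 0.49, 15.9-fold, limma adjusted p = 4.64e-04), on 1450710_at by -2.84 (7.16-fold, adjusted p = 5.58e-04) and on 1422698_s_at by -2.5 (5.68-fold, adjusted p = 0.0019). Eed was lower by -3.26 (SE 0.34, 9.61-fold, adjusted p = 2.55e-04). Cbx7 was lower by -2.58 (5.98-fold, adjusted p = 4.11e-04) and -2.04 (4.11-fold, adjusted p = 0.0017). Bmi1 was the only member called higher on the deposited values, by 3.2 (SE 0.33, 9.19-fold, adjusted p = 2.64e-04) on 1417493_at and at least 7.94-fold (adjusted p = 0.0012) on 1448733_at. These 8 calls held under every alternative tried, with the differences relative to the all-probe-set median of -0.38 running from -3.62 for Jarid2 1422697_s_at to 4.24 for Bmi1 1448733_at. Bmi1 1448733_at lay under 4 on both arrays of co-cultured iPSC and passed the filter through groups where it was high. Its p-value is therefore not support for a difference.

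Smaller differences in the same comparison were less stable. Rnf2 1424873_at was 2.75-fold lower (adjusted p = 0.0029), a call lost after quantile normalization (0.0648). Phc1 was 2.72-fold lower (adjusted p = 0.0256), but not without Sox2-negative replicate a (0.1474), co-cultured iPSC replicate a (0.0910) or b (0.1110), or after quantile normalization (0.3066) or median centring (0.0546). Suz12 was lower on 1420022_s_at (1.96-fold, adjusted p = 0.0191) and 1449661_at (2.50-fold, adjusted p = 0.0282). Both calls were lost without Sox2-negative replicate b (0.0910 and 0.1575), without co-cultured iPSC replicate a (0.0860 and 0.1257) or b (0.0749 and 0.0903), after quantile normalization (0.5801 and 0.3088) and after median centring (0.0624 and 0.0649). Ezh2 read -0.73 (SE 0.29, adjusted p = 0.0687), Rnf2 1451519_at 0.16, and the other Suz12 probe sets -0.75, 0.14 and 0.62. After quantile normalization Rnf2 1451519_at (0.814, adjusted p = 0.0298), Suz12 1427253_s_at (0.787, 0.0333) and Suz12 1452364_at (1.164, 0.0108) were called higher, the last also after median centring (0.865, 0.0319). In all, 2 of 17 members were higher and 10 lower, with 13.4% higher and 31.6% lower over all probe sets, and a median of -1.32. Of all called probe sets 29.8% were higher, against 46.9% after quantile normalization and 42.8% after median centring. All 12 pluripotency markers were called lower, as were 8 of 10 epithelial and 9 of 13 cell cycle markers. The 12 include Sox2, for which this fraction was sorted as negative. Both kept endothelial and blood markers were called lower. Of the fibroblast markers 1 was higher and 2 of 11 lower, and their part in the member differences was not tested.

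The day 32 sample was compared with 2i iPSC on the other side of the array split. Bmi1 was higher on 1417493_at by 1.64 log2 units (SE 0.33, 3.13-fold, limma adjusted p = 0.0239), and Suz12 was lower on 1452364_at by -1.56 (SE 0.28, 2.95-fold, adjusted p = 0.0157) and on 1427253_s_at by -1.03 (SE 0.25, 2.05-fold, adjusted p = 0.0438). No other member was called. Eed read -1.10 (adjusted p = 0.0885), Cbx7 -1.12 and -1.10 (adjusted p = 0.0886 and 0.0685), Jarid2 -0.74 to -1.34 (adjusted p = 0.0637 to 0.3379) and the second Bmi1 probe set 2.14 (adjusted p = 0.0681). Ezh2 read -0.27, Phc1 -0.43, Rnf2 -0.19 and -0.03, and the other Suz12 probe sets -0.36 to -0.62. The 1 call higher and 2 lower stand beside 3.95% and 2.36% of all probe sets, with a median of -0.62 for the members and -0.14 for all. With replicate a or b of 2i iPSC or replicate a of the day 32 sample left out, 0 members were called. Without day 32 replicate b there were 5, namely Suz12 1452364_at and Bmi1 1417493_at as before, with Jarid2 1450710_at (adjusted p = 0.0356) and both of Cbx7 (0.0250 and 0.0293) lower, while Suz12 1427253_s_at was lost (0.0974). Of the pluripotency markers 1 of 12 was called lower (summed level 115.62 to 129.24 in the day 32 sample, 133.77 to 137.3 in 2i iPSC) and of the fibroblast markers 2 of 11 higher (72.81 to 76.02 and 51.54 to 66.88). Their part was not tested.

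The iPSC cultures were compared with each other across the array split, where group and split cannot be told apart and where all probe sets had a median difference of 0.92 in favour of 2i iPSC. Bmi1 was higher in 2i iPSC, 6.89-fold on 1417493_at (limma adjusted p = 1.57e-04) and at least 5.94-fold on 1448733_at (adjusted p = 0.0010), or by 1.86 and 2.52 log2 units relative to the median. Cbx7 was lower, by 2.80-fold on 1449713_at (adjusted p = 0.0026) and 1.96-fold on 1420039_s_at (adjusted p = 0.0330). The calls of Bmi1 and Cbx7 1449713_at held under every alternative tried, and that of Cbx7 1420039_s_at was lost whichever array was left out (0.0871 to 0.1266). That of Bmi1 1448733_at is not support for a difference, since it passed the filter through groups where it was high. Ezh2 (2.71-fold), Suz12 1420022_s_at (2.24-fold) and 1449661_at (3.56-fold), Jarid2 1422698_s_at (2.42-fold) and Rnf2 1424873_at (2.38-fold) were called higher, and after median centring none of these 5 was called. Jarid2 1450710_at was called lower (2.50-fold, adjusted p = 0.0112), but not without replicate a of 2i iPSC (0.0501) or of co-cultured iPSC (0.0832). Jarid2 1422698_s_at lost its call whichever array was left out (0.0627 to 0.1345). Eed (0.36), Phc1 (-0.08), Rnf2 1451519_at (-0.50), Jarid2 1422697_s_at (0.51) and the other Suz12 probe sets (-0.41 to 0.62) were not called. After median centring Rnf2 1451519_at (-1.610, adjusted p = 7.53e-04), Suz12 1427253_s_at (-1.525, 0.0011) and Phc1 (-1.190, 0.0494) were called lower, the first pair also after quantile normalization (-1.122, 0.0067 and -1.154, 0.0058). The 7 of 17 called higher and 3 lower compare with 50.4% and 11.2% of all probe sets. The share of higher among all called was 81.8%, and 52.2% and 36.7% after quantile normalization and median centring. Of the markers, 5 of 12 pluripotency, 4 of 11 fibroblast, 4 of 13 cell cycle, 3 of 10 epithelial and both endothelial and blood markers were called higher, and 0, 1, 1, 1 and 0 lower. Their part was not tested.

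The day 32 sample was also set against the mean of both fractions, again across the split, with a median difference of 1.31 over all probe sets. Rnf2 1424873_at was 4.89-fold higher (limma adjusted p = 3.32e-05) and Bmi1 4.41-fold on 1417493_at (adjusted p = 1.28e-04). Suz12 was 4.02-fold lower on 1427253_s_at (adjusted p = 4.06e-05) and 3.96-fold lower on 1452364_at (adjusted p = 7.19e-05). Cbx7 1449713_at was 2.66-fold lower (adjusted p = 9.24e-04), with the day 32 arrays near the Sox2-negative and below the Sox2-positive ones. These 5 calls held under every alternative tried. Eed (4.03-fold), Ezh2 (3.77-fold), Suz12 1449661_at (4.35-fold), Jarid2 1422697_s_at (5.43-fold) and 1422698_s_at (4.13-fold) and Bmi1 1448733_at (5.15-fold) were called higher, and none of these 6 was called after median centring. Suz12 1420022_s_at was called higher (1.04 log2 units, adjusted p = 0.0030) but read -0.06 after quantile normalization and -0.30 after median centring. Lower calls of Rnf2 1451519_at (1.61-fold, adjusted p = 0.0146), Jarid2 1450710_at (1.86-fold, adjusted p = 0.0258) and Cbx7 1420039_s_at (2.25-fold, adjusted p = 0.0052) were lost without an array: day 32 replicate b for Rnf2 (0.1309), day 32 replicate a for the others (0.2839 and 0.0744), and Sox2-positive replicate a for Jarid2 (0.0640). Phc1 (0.25) and Suz12 1420021_s_at (-0.14) were not called. Suz12 1420021_s_at was called lower after quantile normalization (-1.187, adjusted p = 0.0036) and median centring (-1.493, 9.94e-04), and Phc1 after median centring (-1.095, 0.0349). The 9 of 17 called higher and 6 lower compare with 66% and 11.1% of all probe sets. Of all called 85.6% were higher, and 57.2% and 44.1% after the same alternatives. Of the markers, 12 of 12 pluripotency, 10 of 11 fibroblast, 9 of 10 epithelial, 7 of 13 cell cycle and 1 of 2 endothelial and blood markers were called higher, and 1 cell cycle marker lower. Their part was not tested.

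Probe sets of a gene often gave different answers, which bears on which Suz12, Jarid2 and Rnf2 values can be read as the gene. Between the fractions the probe sets of a gene stayed within 0.59 log2 units of each other. In the fractions against co-cultured iPSC, on the same side of the split, their differences spread over up to 1.94 for Suz12, 1.62 for Rnf2 and 1.60 for Jarid2. The widest spread there was 1.19 for Bmi1 and 0.54 for Cbx7. Across the split they spread over 4.13 for Suz12, 3.33 for Jarid2 and 2.98 for Rnf2 (day 32 sample against the fractions), but over 0.24 for Cbx7 and 0.22 for Bmi1. Between the iPSC cultures, also across the split, the spread was 0.655 for Bmi1 and 0.515 for Cbx7, against 2.24 for Suz12. For Suz12, 1427253_s_at and 1452364_at moved together and apart from 1420022_s_at and 1449661_at. The former pair share a design sequence in the platform annotation, as do 1420021_s_at and 1420022_s_at and the kept probe sets within each of Jarid2, Cbx7, Rnf2 and Bmi1, so probe sets of a gene are not independent measurements. An ID ending in _s_at denotes probes that can match several transcripts, so that signal from a related sequence cannot be told apart there.

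**Figure D3:**
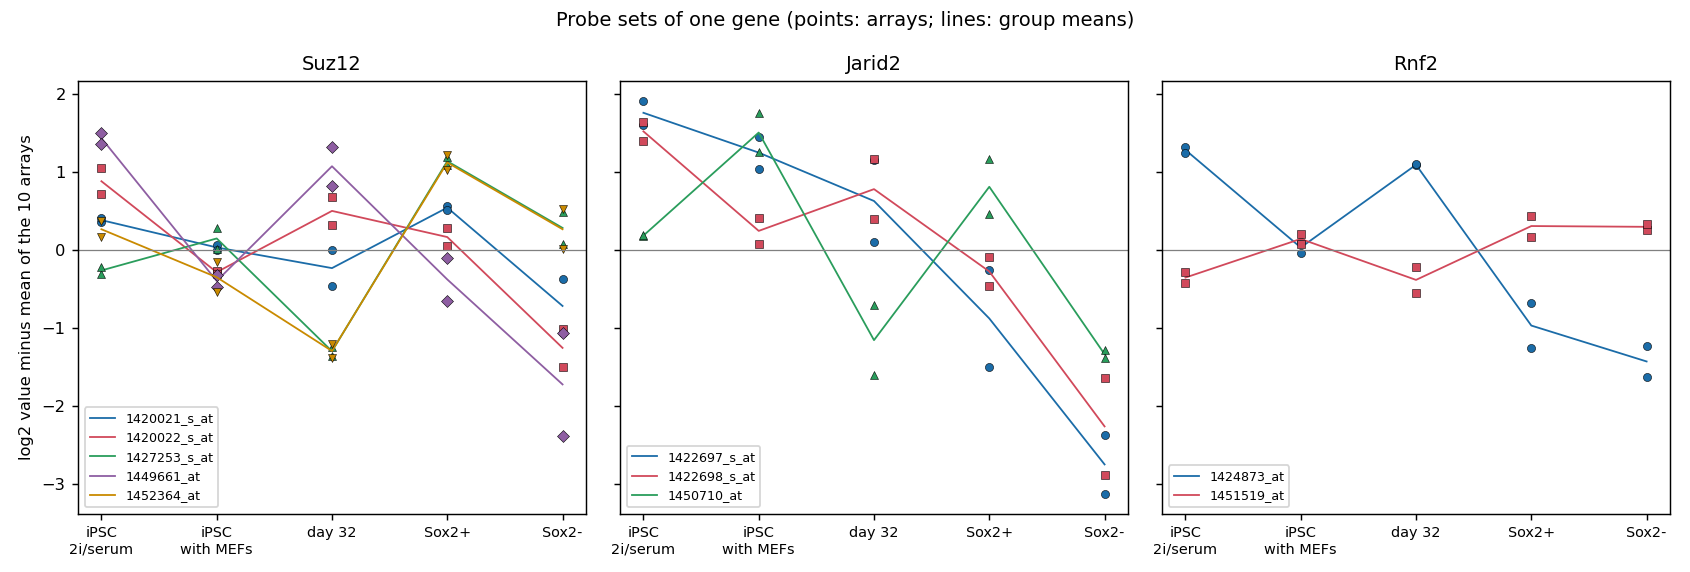
Log2 value minus the mean of the 10 arrays (vertical axis) for the kept probe sets of Suz12, Jarid2 and Rnf2 in the 5 groups (horizontal axis). Points are arrays and lines join group means. Probe sets 1427253_s_at and 1452364_at of Suz12 have the day 32 sample lowest, the other 3 the Sox2-negative fraction, and the Rnf2 probe sets part in the sorted fractions.

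PRC2 and PRC1 members were contrasted by a mean over the 4 genes of each, every gene being the mean of its kept probe sets after subtraction of the 10-array mean. The PRC2 mean was 1.11 ± 0.11 (SD, n = 2) in 2i iPSC, 0.44 ± 0.16 in co-cultured iPSC, 0.30 ± 0.39 in the day 32 sample, -0.41 ± 0.07 in the Sox2-positive fraction and -1.45 ± 0.01 in the Sox2-negative fraction. The PRC1 mean moved over a narrower range, from 0.34 ± 0.14 in the day 32 sample to -0.49 ± 0.03 in the Sox2-negative fraction. PRC2 minus PRC1 was 0.84 and 0.72 in the iPSC groups, -0.03 in the day 32 sample, -0.57 in the Sox2-positive fraction and -0.96 in the Sox2-negative fraction, with a pooled SD between replicates of 0.17. These groups lie on both sides of the array split: between 2i and co-cultured iPSC PRC2 differed by 0.67 and all probe sets had a median difference of 0.92, and between the day 32 sample and the fractions these were 1.23 and 1.31. An order of the complexes' levels across the split is therefore not separate from that shift. Members were chosen with results of these data known, so these values carry no p. Between the fractions PRC2 differed by 1.03 and PRC1 by 0.64. Against co-cultured iPSC, PRC2 differed by -0.86 (Sox2-positive) and -1.89 (Sox2-negative fraction), and PRC1 by 0.42 and -0.22. The day 32 sample against 2i iPSC gave -0.81 and 0.06.

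The narrow range of PRC1 covered opposite movements of Cbx7 and Bmi1. Here each gene was taken on its probe set with the highest mean (Cbx7 1449713_at, Bmi1 1417493_at), not as the mean of its probe sets. Cbx7 minus Bmi1, each centred on its own mean, was 3.37 and 3.91 on the arrays of co-cultured iPSC and 2.15 and 2.84 in the Sox2-positive fraction. It was -0.87 and -0.39 in 2i iPSC, -2.34 and -1.94 in the Sox2-negative fraction and -4.05 and -2.70 in the day 32 sample. The 4 arrays of the first pair of groups were positive and the other 6 negative. Left out of PRC1, Bmi1 turned the PRC2 minus PRC1 difference between the fractions from 0.39 to -0.34, and Cbx7 turned that between the iPSC cultures from 0.12 to -0.47. The other comparisons kept their sign without either gene.

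**Figure D4:**
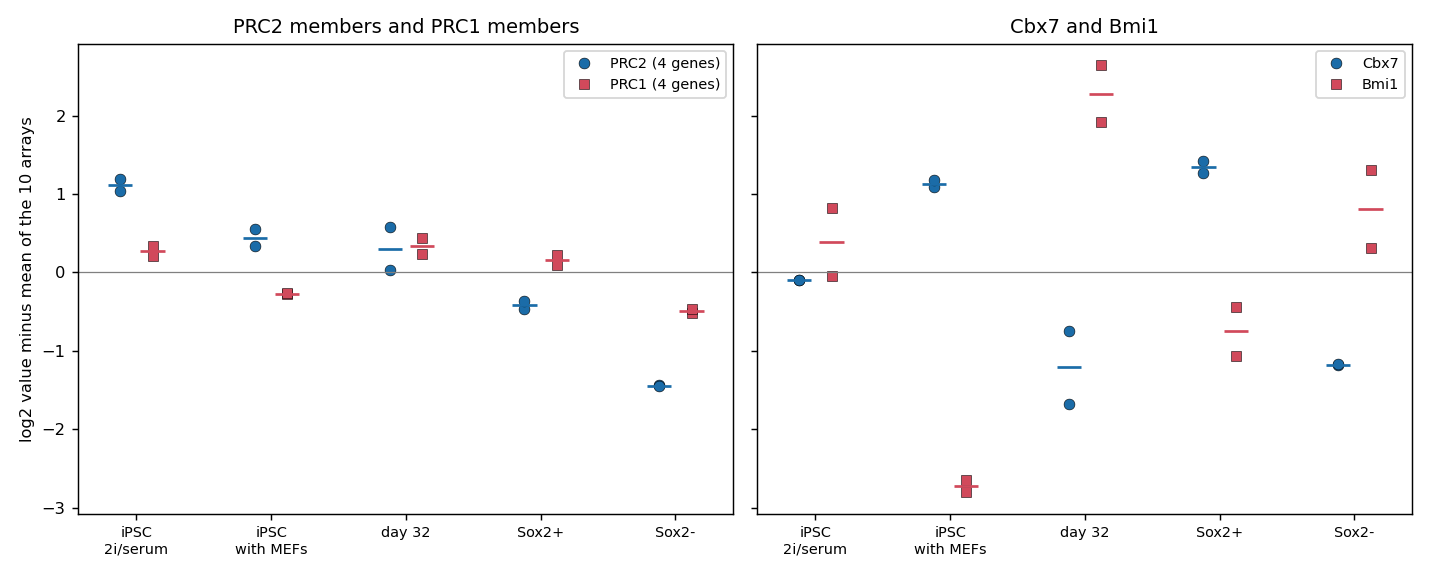
Log2 value minus the mean of the 10 arrays (vertical axis) in the 5 groups (horizontal axis), on the left for the mean over 4 PRC2 and 4 PRC1 genes, on the right for Cbx7 and Bmi1; 2i iPSC and the day 32 sample lie on the other side of the array split from the rest. Points are arrays and short lines group means. The PRC2 mean runs from 1.11 in 2i iPSC to -1.45 in the Sox2-negative fraction, and Cbx7 and Bmi1 lie on opposite sides of 0 in every group but 2i iPSC, where Bmi1 replicate b and both Cbx7 values are just below it.

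Other genes of the pathway were taken from lists, with a probe set per gene. Their counts stand beside 6.19% of all probe sets higher and 5.07% lower between the fractions, 7.38% and 25.4% in the Sox2-positive and 13.4% and 31.6% in the Sox2-negative fraction against co-cultured iPSC, and 3.95% and 2.36% in the day 32 sample against 2i iPSC. With the arrays of the fractions alone in the fit, limma called 0 of the other PRC2, 0 of the other PRC1 and 0 of the target genes between the fractions, and 1 antagonist. In the Sox2-positive fraction against co-cultured iPSC the other PRC2 genes called went from 6 to 3 in such a fit, and to 3 after quantile normalization and after median centring. Of 9 other PRC2 genes 2 were called higher and 0 lower in the Sox2-positive against the Sox2-negative fraction (median 0.15). Mtf2, a PRC2 accessory subunit, read 8.74 and 9.95 against 7.31 and 7.51 (3.82-fold, limma adjusted p = 0.0203), and Lcor was 1.80-fold higher (adjusted p = 0.0486). Against co-cultured iPSC, 2 were higher and 4 lower in the Sox2-positive fraction (median -0.70), and 1 higher and 5 lower in the Sox2-negative fraction (median -0.86). Ezh1, the alternative catalytic subunit to Ezh2, read 3.52 and 3.38 in co-cultured iPSC, 6.63 and 6.39 in the Sox2-positive fraction and 5.41 and 6.34 in the Sox2-negative fraction, at least 5.70-fold (adjusted p = 0.0011) and at least 3.67-fold (adjusted p = 9.18e-04) higher. Ezh1 passed the filter through groups where it was high, so these p-values are not support for a difference. Mtf2 was 7.21-fold lower in the Sox2-negative fraction (limma adjusted p = 9.33e-04). The histone-binding subunits Rbbp4 and Rbbp7 were 1.76-fold to 2.16-fold lower in both fractions, and Phf19 was also called lower in both, with values under 4 on all 6 arrays compared. Lcor (2.18-fold higher) and Epop (3.63-fold lower) were called in the Sox2-positive and Phf1 (lower, under 4 on all 4 arrays compared) in the Sox2-negative fraction. The calls of Ezh1 in both fractions and of Mtf2 in the Sox2-negative fraction held under every alternative tried, and the others did not. In the day 32 sample against 2i iPSC, limma called 0 of the 9.

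Of 12 other PRC1 genes, 1 was higher and 1 lower in the Sox2-positive against the Sox2-negative fraction (median -0.17). Yaf2, a binding partner of the PRC1 ligases, read 7.56 and 7.34 against 9.29 and 10.46 (5.37-fold lower, limma adjusted p = 0.0087), and Mga, a subunit of a variant PRC1, was 2.35-fold higher (adjusted p = 0.0404). Against co-cultured iPSC, 1 was higher and 4 lower in each fraction (medians -0.85 and -0.84). Cbx2, a Cbx protein related to Cbx7, was 2.43-fold lower in the Sox2-positive (adjusted p = 0.0058) and 3.15-fold lower in the Sox2-negative fraction (adjusted p = 0.0011), and both calls held under every alternative. Kdm2b, which brings a variant PRC1 to CpG islands, was 2.11-fold and 3.24-fold lower, and Ring1, the paralogue of Rnf2, 2.33-fold and 2.06-fold lower. E2f6 (2.80-fold lower) and Pcgf1 (at least 1.12-fold higher) were called in the Sox2-positive, and Pcgf2 (2.59-fold lower) and Yaf2 (4.16-fold higher, adjusted p = 0.0044) in the Sox2-negative fraction. Pcgf1 read 2.88 and 2.94 in co-cultured iPSC and passed the filter through groups where it was high, so its call is not support. Yaf2 (3.53-fold) and Phc2 (2.89-fold) were the 2 called higher in the day 32 sample against 2i iPSC, where 0 were lower. With the arrays of these groups alone in the fit, neither was called.

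Of 11 genes that oppose Polycomb, mostly subunits of the trithorax histone methylases, 2 were higher and 0 lower in the Sox2-positive against the Sox2-negative fraction (median 0.09): Ash2l (4.35-fold, limma adjusted p = 0.0056) and Kmt2c (2.75-fold, adjusted p = 0.0292). Against co-cultured iPSC, 3 were lower in the Sox2-positive fraction, namely Bap1 (2.90-fold), Wdr5 (2.47-fold) and Kmt2d (3.12-fold). In the Sox2-negative fraction 6 were lower, namely Wdr5 (3.93-fold), Ash2l (4.06-fold), Dpy30 (2.78-fold), Kmt2c (2.91-fold), Bap1 (2.27-fold) and Kmt2d (2.31-fold), with medians of -0.44 and -1.18. After quantile normalization 0 were called in the Sox2-positive (limma adjusted p of 0.1623 for Bap1, 0.2298 for Wdr5 and 0.0993 for Kmt2d) and 2 in the Sox2-negative fraction. None of the 11 was called in the day 32 sample against 2i iPSC.

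Of 16 known Polycomb target genes on the array, which encode developmental regulators, 6 passed the filter. Of these 6, 5 lay under 4 on both arrays of co-cultured iPSC and 0 on both of the day 32 sample. Genes kept through the groups where they are high had to differ from co-cultured iPSC, so no count over the 6 is given. Pax3, a neural crest and muscle factor, read 3.09 and 2.55 in 2i iPSC, 2.1 and 2.46 in co-cultured iPSC, 8.36 and 6.66 in the day 32 sample, 8.59 and 4.89 in the Sox2-positive fraction and 10.43 and 10.59 in the Sox2-negative fraction. Against co-cultured iPSC it was at least 91.1-fold higher in the Sox2-negative (limma adjusted p = 4.26e-04) and at least 6.68-fold higher in the Sox2-positive fraction (adjusted p = 0.0097). Pax3 passed the filter only through groups where it was high, so these p-values are not support for a difference. It was 13.6-fold lower in the Sox2-positive than in the Sox2-negative fraction (adjusted p = 0.0400). Cdkn2a, the cell cycle inhibitor locus repressed by Bmi1 in fibroblasts, read 5.53 and 5.05, 2.23 and 2.12, 7.2 and 6.64, 3.39 and 2.79, and 3.95 and 4.05 in the same groups. It was highest in the day 32 sample, as Bmi1 was, and 3.09-fold above 2i iPSC (adjusted p = 0.0207). Olig2 was at least 1.43-fold higher in the Sox2-positive than the Sox2-negative fraction (limma adjusted p = 0.0170) and 3.23-fold lower in the day 32 sample than in 2i iPSC (adjusted p = 0.0216). It was also called lower in the Sox2-negative fraction than in co-cultured iPSC (adjusted p = 0.0303). There it read 2.94 and 2.86 against 3.76 and 4.10, under or near the filter value. Gata4 read 3.72 and 3.70 in the Sox2-positive fraction, 3.89 and 4.49 in the Sox2-negative fraction and 2.61 and 2.57 in co-cultured iPSC. These values lay under or near the filter value. It was called higher in both fractions against co-cultured iPSC (limma adjusted p = 0.0221 and 0.0032) and in the day 32 sample against 2i iPSC (2.37-fold, adjusted p = 0.0456). It too passed the filter through groups where it was high, so these p-values are not support either.

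Leaving out single arrays ended many of these calls of other genes. Between the fractions, Ash2l kept its call in all 4 omissions. Without Sox2-positive replicate b the calls of Yaf2 (limma adjusted p = 0.0502), Mtf2 (0.0900), Olig2 (0.0752), Pax3 (0.1130), Lcor (0.0843), Mga (0.0746) and Kmt2c (0.1006) were lost. Without Sox2-negative replicate a those of Mtf2 (0.0679), Pax3 (0.1016), Lcor (0.0923) and Mga (0.1508) were lost, and without its replicate b those of Olig2 (0.0506), Pax3 (0.1063), Lcor (0.1009) and Kmt2c (0.1034). Without Sox2-positive replicate a, Lcor (0.1365), Mga (0.1287) and Kmt2c (0.0676) were lost. In the day 32 sample, each of the calls of Phc2, Yaf2, Cdkn2a, Olig2, Pax3 and Gata4 was lost without either array of 2i iPSC (0.0516 to 0.2336) and without day 32 replicate a (0.1022 to 0.2923), and that of Gata4 also without replicate b (0.1740). In the Sox2-negative fraction against co-cultured iPSC, Mtf2, Cbx2, Kdm2b, Yaf2, Wdr5 and Ash2l kept their calls under every alternative tried. Ezh1, Pax3, Cdkn2a and Gata4 did so as well. They passed the filter through groups where they were high, so their calls are not support. In the same comparison co-cultured iPSC replicate b ended those of Kmt2c (0.0511), Bap1 (0.0661), Rbbp7 (0.0852), Phf19 (0.0916), Phf1 (0.1568), Ring1 (0.1167), Pcgf2 (0.0731), Kmt2d (0.0801) and Olig2 (0.1570), and replicate a those of Rbbp4 (0.0892), Ring1 (0.0678), Pcgf2 (0.0895), Kmt2d (0.1441) and Olig2 (0.0687). Sox2-negative replicate a ended Ring1 (0.1128), Pcgf2 (0.1051), Kmt2d (0.1665) and Olig2 (0.0701), and replicate b Rbbp4 (0.0523), Phf1 (0.0798) and Olig2 (0.0885). In the Sox2-positive fraction against co-cultured iPSC, Ezh1, Cbx2 and Bap1 kept their calls in all 4 omissions. That of Ezh1 is again not support, because of the filter. Wdr5 (0.0531), Lcor (0.0582) and Pax3 (0.0696) lost theirs without co-cultured iPSC replicate a only. Rbbp7, Rbbp4, Phf19, Epop, Ring1, Kdm2b, E2f6, Pcgf1, Kmt2d and Gata4 lost theirs in 2 to 4 of the omissions, co-cultured iPSC replicate b among them each time (0.0501 to 0.2419).

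Across the split, all probe sets had median differences of 0.92 (2i against co-cultured iPSC) and 1.31 (day 32 sample against the fractions). Of all probe sets 50.4% were called higher and 11.2% lower in the first comparison, and 66% and 11.1% in the second. The list medians were 0.71 and 1.36 for the other PRC2 genes, 0.07 and 0.99 for the other PRC1 genes, and 0.40 and 1.45 for the antagonists. Of the other PRC2 genes, 2i iPSC exceeded co-cultured iPSC in 4 (Aebp2, Ezh1, Mtf2 and Phf1, the last reading -0.07 after quantile normalization and -0.40 after median centring), and the day 32 sample exceeded the fractions in 6 (Aebp2, Phf19, Mtf2, Phf1 and Rbbp7 among them, Rbbp7 reading -0.31 after median centring) and lay below in 1 (Lcor). Of the other PRC1 genes the counts were 4 higher (Pcgf1, Scmh1, Cbx6 and Kdm2b) and 2 lower (Mga and Phc2), and 7 higher and 1 lower (Mga, at least 14.4-fold). Of the antagonists they were 5 higher (Kdm6a, Usp16, Kmt2a, Ash2l and Men1) and 1 lower (Kmt2d, at least 21.9-fold), and 9 higher and 1 lower (Kmt2d again). Of the target genes Cdkn2a, Olig2 and Gata4 were called higher in the first and Cdkn2a, Gata4 and Pax6 in the second of these comparisons (the latter pair reading -0.10 and -0.02 after median centring). Gata4 lay at or under 4 in both groups of the first comparison, and Pax6 under 4 on every array of the fractions. Genes under 4 on all arrays of the dimmer group, such as Ezh1, Pcgf1 and Cdkn2a in the first comparison, passed the filter through groups where they were high. Calls of such genes are not support for a difference. Median centring ended the calls of Ezh1, Mtf2, Kdm2b, Usp16, Kmt2a, Ash2l, Men1 and Gata4 in the first comparison (limma adjusted p = 0.0778 to 0.9115). In the second it ended those of Phf19, Phf1, Yaf2, Pcgf1, Bap1, Ash2l, Usp16 and Kmt2a (0.0994 to 0.9522). What the group and what the split contributes cannot be told apart.

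The genes most like each member over the 10 arrays are given as a description, by the Pearson r of the probe set with the highest mean, among 8467 genes. Eed was followed most closely by Gon4l and Dyrk3 (r = 0.996 each) and Ezh2 by Zfp212 (0.994) and Usp4 (0.991). Suz12 1420021_s_at was nearest to St8sia1 (0.941) and Pecam1 (0.935), and Jarid2 1422698_s_at to Gga2 (0.989) and Syngr1 (0.985). Among PRC1 members, Phc1 was nearest to Gigyf1 (0.951) and Prune1 (0.928), Cbx7 to Epas1 (0.963) and Rnf17 (0.949), Rnf2 1451519_at to Ccl28 (0.963) and Clk4 (0.962), and Bmi1 1417493_at to Peg12 (0.982) and Gdpd1 (0.979). The arrays share groups and fall on 2 sides of the split, which all such values contain.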

How the data were processed

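RNA was extracted with Trizol, amplified with either of 2 NuGEN Ovation kits and labelled with biotin, per the labels' protocols, which do not say which sample had which kit. The deposited table holds log2 expression values of the authors for 22690 probe sets (0.58 to 14.51 here). GCRMA and affy are named in the submitters' processing notes. Not given in the sources used here were their versions and whether the arrays were normalized together. Every column of values was mapped to a sample.

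Gene symbols came from GEO's platform annotation, which can be old. The 64 control probe sets and those with no or several gene symbols were left out. Probe sets with a log2 value above 4 on at least 2 arrays were fitted with a mean per group over all 10 arrays in limma 3.58.1 (lmFit, contrasts.fit, eBayes; R 4.3.3; 5 residual and 4.24 prior degrees of freedom), with Benjamini-Hochberg adjustment over 14012 probe sets in each of 6 comparisons. Where the dimmer group lay under 4 on both arrays, the fold is a lower bound counted from 4. Figures were drawn with matplotlib 3.10.9 (Python 3.11.15). In simulated data for the comparison of the fractions, 67, 67 and 66 of 14012 probe sets were changed by 1, 2 and 4 log2 units. The fit recovered 16.4%, 74.6% and 100% of these, with 6 false calls. The real comparisons called 6.31% to 77.1% of all probe sets, so these recoveries do not measure their power.

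Every member is named in every comparison. Of the other pathway genes, those called are named, at most 6 per list and comparison in order of p, on the probe set with the highest mean. The members and lists were chosen with earlier results of these data known. Alternatives were no filter, quantile normalization, median centring, only the compared arrays, array weights, the replicate block, 1 probe set per gene and leaving out each array. The effect of leaving Cbx7 or Bmi1 out of PRC1, and all alternatives for the other pathway genes, were chosen after seeing the data.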

Additional observations from a re-analysis of the deposited data

How the results depend on the processing

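Of 1102 alternative values of the member differences, 932 kept their direction and side of the threshold, 103 lost the call, 32 gained it and 35 changed sign, 2 of them from a called difference. The cause of the changes in sign was not tested. Differences of 1 log2 unit were seldom called on simulated data with few changed probe sets, which does not measure the power of these comparisons.

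Between the fractions the 8 member calls became 2 with the compared arrays only, 3 with array weights, 4 with 1 probe set per gene and 4 to 8 with an array left out. With an array left out Ezh2 ran from -0.295 to 0.235 and Rnf2 1451519_at from -0.125 to 0.145. Of 1578 calls over all probe sets, 321 were made with the compared arrays only, 451 with array weights and 649 without Sox2-positive replicate b. The PRC2 minus PRC1 difference was 1.016 without Cbx7 and -0.343 without Bmi1.

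In the Sox2-positive fraction against co-cultured iPSC, the 7 calls became 2 with 1 probe set per gene and 2 to 6 with an array left out. Quantile normalization gave 0.185 for Jarid2 1422698_s_at, 0.015 for Jarid2 1450710_at, 0.542 for Phc1 and -1.008 for the PRC2 minus PRC1 difference, which was -0.766 without Bmi1. Phc1 read 0.205 after median centring. With an array left out Phc1 ran from -0.280 to 0.140, Cbx7 1420039_s_at from -0.010 to 0.390 and Suz12 1449661_at from -0.250 to 0.290. The 4600 calls over all probe sets became 2714 after quantile normalization and 1662 to 4117 with an array left out.

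In the Sox2-negative fraction against co-cultured iPSC, 5 calls were left of 12 with 1 probe set per gene. Quantile normalization gave 0.025 for Ezh2, 0.029 for Suz12 1420021_s_at and -1.377 for the PRC2 minus PRC1 difference, which was -2.369 without Cbx7 and -0.423 without Bmi1. Suz12 1427253_s_at ran from -0.070 to 0.340 with an array left out. The 6307 calls over all probe sets became 3739 and 4025 without replicates a and b of co-cultured iPSC.

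In the day 32 sample against 2i iPSC, the 3 calls became 1 with the compared arrays only or 1 probe set per gene, 8 with array weights and 0 to 5 with an array left out. Rnf2 1451519_at read 0.090 after quantile normalization and ran from -0.195 to 0.135 with an array left out. The PRC2 minus PRC1 difference was -1.260 without Cbx7 and -0.258 without Bmi1. The 884 calls over all probe sets became 302 with the compared arrays only, 520 after quantile normalization, 1990 with array weights and 116 to 826 with an array left out.

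Between the iPSC cultures, 4 of 10 calls were left with 1 probe set per gene. After median centring Eed read -0.755, Jarid2 1422697_s_at -0.605, Phf1 -0.405, Suz12 1420021_s_at -0.765 and Suz12 1452364_at -0.500. After quantile normalization Jarid2 1422697_s_at read -0.136, Phc1 0.095, Phf1 -0.072 and Suz12 1452364_at -0.300. Phc1 ran from -0.310 to 0.160 with an array left out. The PRC2 minus PRC1 difference was 0.378 after quantile normalization, 0.674 with 1 probe set per gene, -0.472 without Cbx7 and 0.975 without Bmi1.

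In the day 32 sample against the fractions, 6 of 15 calls were left with 1 probe set per gene. After median centring Gata4 read -0.102, Pax6 -0.023, Rbbp7 -0.312, Phc1 -1.095 and Suz12 1420022_s_at -0.302. Quantile normalization gave -0.327 for Phc1 and -0.058 for Suz12 1420022_s_at. With an array left out Phc1 ran from -0.132 to 0.638 and Suz12 1420021_s_at from -0.375 to 0.085. The PRC2 minus PRC1 difference was 1.383 with 1 probe set per gene, 0.130 without Cbx7 and 1.311 without Bmi1.

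The letters a and b are shared across groups, but over 10 pairs of groups the deviations of same-lettered arrays correlated between -0.068 and 0.308, with 2 pairs above 0.1. The letters were therefore not taken to pair the arrays, although a shared culture or sort was not tested. The replicate block moved the member calls between the fractions from 8 to 9, with Phc1 added (limma adjusted p = 0.0287). In the day 32 sample against 2i iPSC it left 3 calls, with Suz12 1427253_s_at lost (0.0541) and Bmi1 1448733_at added (0.0153). In the other comparisons the counts of 7, 12, 10 and 15 did not move.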
